A study of Bos taurus with 35 samples.

Results

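Gene expression in bovine *longissimus thoracis* (*LT*), the large back muscle that is sold as rib steak, was compared between 24 h and 0 h *post-mortem*. The comparison used the 7 count columns of 24 h and the 7 of 0 h, paired by the animal number that precedes the time in each column name, so that 14 of the 35 samples of the series are its members. The 7 animals were British × Continental crossbred beef heifers that weighed between 525 and 635 kg, with no treatment between the groups, slaughtered in the same abattoir. At 0 h a core had been taken 45 min after slaughter, and at 24 h another core was taken from the same left carcass side, which had been hanging in a refrigerated drip cooler in the meantime. Time *post-mortem*, cooling and the position of the core on the carcass all differ between the groups and cannot be told apart. RNA of each core was sequenced without pooling of animals, so that animals are the replicates.

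A carcass muscle no longer receives oxygen or nutrients from the blood, and its fibres turn to anaerobic glycolysis while the tissue acidifies and cools. RNA synthesis and RNA decay can both go on for some time after death, and a sequenced sample shows only the relative amounts of the transcripts that remain. Beef *LT* holds muscle fibres together with adipocytes (the marbling fat), blood vessels, connective tissue, nerve and immune cells. In a bulk sample of this kind, fewer cells of a type and less RNA per cell cannot be told apart.

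Total counts ranged from 21268791 to 65520943 per sample at 0 h (median 53810583, n = 7) and from 21716752 to 92459664 at 24 h (median 38596868, n = 7). Levels are given as CPM, the count scaled to the TMM normalized size of the library, as the lowest, median and highest of the 7 animals. Each log2 fold change (24 h against 0 h) comes from the edgeR fit with animal as a block, with its standard error (SE) and its false discovery rate (FDR, Benjamini-Hochberg over the 14630 genes tested). Genes whose FDR was below 0.05 and whose fold change exceeded 1.5 were called DE. The tissue was checked with the creatine kinase gene CKM, a marker of skeletal muscle fibres. It had 11235, 12197 and 14452 CPM at 0 h and 12500, 15098 and 18846 CPM at 24 h (log2 fold change 0.28, SE 0.06, FDR 0.0055), higher in 7 of 7 animals by less than the fold threshold. None of the 13 named genes of the muscle fibre list was called, and their summed CPM overlapped between 0 h (79699 to 92399) and 24 h (79103 to 103205).

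The test called 106 genes up at 24 h (0.725% of the genes tested) and 139 genes down (0.95%), together 245 genes (1.67%). By the FDR alone the counts were 596 and 386, 6.71% of the genes tested. The downregulated genes moved further: their median absolute log2 fold change was 1.45 against 0.87 for the upregulated genes, and 31 of them changed by over 8-fold against 5 of the upregulated genes. Of the upregulated genes, 79 were higher in all 7 animals (7.36% of all genes tested were) and 16 had levels at 24 h above every level at 0 h (0.253% of all genes). Of the downregulated genes, 112 were lower in all 7 animals (6.46% of all genes) and 46 did not overlap between the groups (0.396% of all genes). The median log2 fold change of all genes tested was -0.004. Among the upregulated genes 62 had a mean under 1 CPM, as did 60 of the downregulated genes.

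The numbers of called genes depended on the pairing and on single animals. Without the block the same thresholds called 22 genes up and 79 down. Leaving out animal 107 or animal 206 gave 69 upregulated genes each, of which 63 and 64 were among the 106. When any 1 of the 7 animals was left out, 42 of the 106 upregulated genes and 90 of the 139 downregulated genes were called each time. Gene names were taken from the study's list of genes that were DE at some time point, so that 3106 of the 14630 genes tested have a symbol here. Counts within gene lists therefore cover only members that the study had found changed at some time in these same samples, and they are not independent evidence of a direction. Of all named genes 2.48% were called up and 4.02% down at 24 h, and their median log2 fold change was -0.08.

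**Figure D1:**
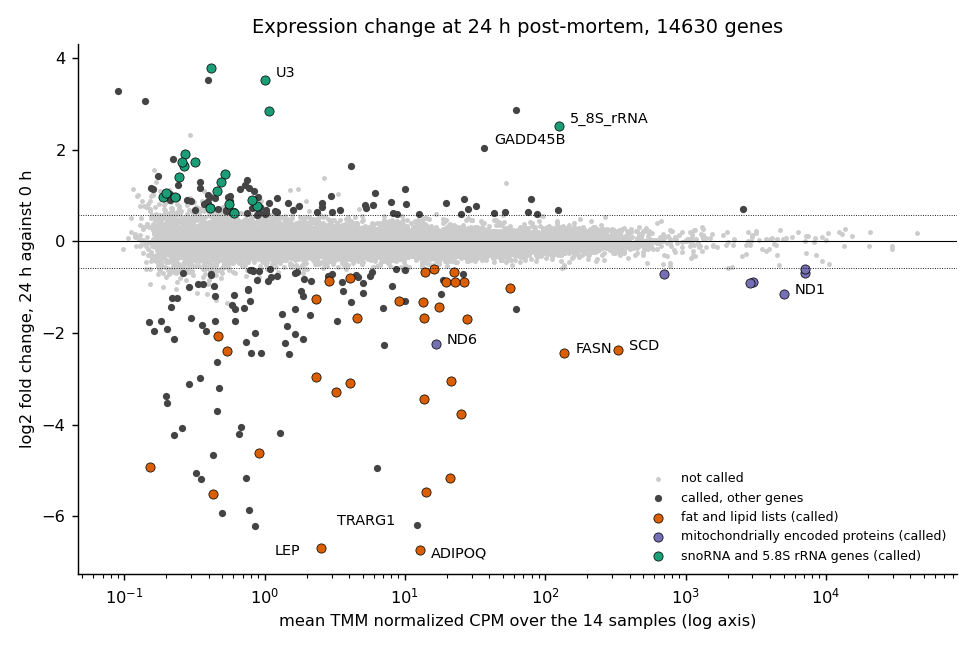
Log2 fold change of each of the 14630 genes tested (24 h against 0 h, vertical axis) against its mean CPM over the 14 samples (log axis). Dotted lines mark a fold change of 1.5. Called genes of the fat and lipid lists (orange) all lie below 0, down to -6.74 for ADIPOQ, called mitochondrially encoded protein genes (purple) lie between -0.60 and -2.25, and called snoRNA and 5.8S rRNA genes (green) lie above 0.

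The largest falls at 24 h included the genes that define fat cells. Adipocytes store triglyceride in a lipid droplet that is coated by perilipin and CIDE proteins, they make fatty acids from acetate and glucose, and they release them by hormone-driven lipolysis. They also secrete adipokines, hormones that report on the fat store. Of 107 genes fixed in 6 fat and lipid lists, 52 were named, and of these 33 were downregulated, 0 upregulated and 19 not called. Of all named genes 4.02% were downregulated and 2.48% upregulated, and these shares are the background for the gene list counts below. The median log2 fold change of the 52 was -0.88, and 14 of the 52 did not overlap between 0 h and 24 h. Of all genes tested, 0.396% were lower at 24 h without overlap. Of the 33, 25 were called whichever animal was left out.

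Among the secreted products of adipocytes, 7 of 9 named genes were downregulated. ADIPOQ, which encodes adiponectin, had 4.55, 27.7 and 46.2 CPM at 0 h and 0.137, 0.206 and 0.747 CPM at 24 h (log2 fold change -6.74, SE 0.50, FDR 4.58e-10). Every 24 h sample lay below every 0 h sample, and the raw counts fell from between 164 and 2666 to between 5 and 25. LEP, which encodes the satiety hormone leptin, had 0.721, 4.37 and 11.98 CPM at 0 h and 0, 0.0365 and 0.176 CPM at 24 h (log2 fold change -6.69, SE 0.58, FDR 5.42e-09). These groups did not overlap either, although at 24 h LEP rested on 0 to 8 reads per sample. ANGPTL8, a feeding-induced inhibitor of lipoprotein lipase, fell from a median of 3.89 to 0.361 CPM (log2 fold change -2.96, SE 0.47, FDR 0.000148), and RBP4, the retinol carrier, from 13.8 to 4.70 CPM (-1.30, SE 0.26, FDR 0.002). In both the ranges overlapped. APOE (log2 fold change -0.66, FDR 0.034) lost its call when any 1 of 5 animals (101, 104, 107, 201 or 202) was left out, with an FDR of up to 0.13. LPL, the lipoprotein lipase that muscle fibres make as well, had 168, 223 and 287 CPM at 0 h and 106, 190 and 224 CPM at 24 h and was not called (-0.39, FDR 0.13). The adipsin gene CFD was not called either (0.24, FDR 0.30).

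Both named adipocyte transcription regulators were downregulated, by very different amounts. THRSP (Spot 14), a regulator of lipogenic genes, had 5.35, 44.7 and 70.4 CPM at 0 h and 0.507, 0.895 and 3.52 CPM at 24 h (log2 fold change -5.16, SE 0.49, FDR 3.38e-08), with no overlap. PPARG, the master regulator of adipocyte differentiation, had 3.80, 4.96 and 6.84 CPM at 0 h and 1.83, 2.91 and 4.75 CPM at 24 h (-0.80, SE 0.17, FDR 0.0049). It was lower in 7 of 7 animals but the groups overlapped, and without animal 201 its FDR was 0.051.

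Of the 9 named lipid droplet genes, 4 were downregulated and 5 were not called. CIDEC, which enlarges droplets by fusing them, had 5.05, 31.4 and 52.2 CPM at 0 h and 0.222, 0.774 and 1.26 CPM at 24 h (log2 fold change -5.47, SE 0.47, FDR 4.29e-09). PLIN1, the perilipin of adipocytes, went from 9.34, 55.3 and 80.0 CPM to 2.55, 3.03 and 4.51 CPM (-3.77, SE 0.39, FDR 2.01e-07). Neither gene overlapped between the groups. The perilipin genes PLIN2, PLIN4 and PLIN5, which are used by many cell types or by muscle, had log2 fold changes of -0.32 (FDR 0.073), -0.44 (FDR 0.10) and 0.09 (FDR 0.71). FITM1, a droplet-forming protein of muscle, was at 0.22 (FDR 0.018), above 0 in 7 of 7 animals and under the fold threshold.

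In fatty acid synthesis, 10 of 12 named genes were downregulated, from the supply of acetyl-CoA to desaturation. The cytosolic acetyl-CoA synthetase gene ACSS2 fell from a median of 80.3 to 35.5 CPM (log2 fold change -1.02, FDR 0.0094), and ACACA, the acetyl-CoA carboxylase that commits carbon to fat, from 41.2 to 12.9 CPM (-1.69, FDR 0.000293). FASN, the fatty acid synthase, had 69.4, 229 and 373 CPM at 0 h and 37.2, 40.3 and 45.9 CPM at 24 h (-2.44, SE 0.36, FDR 4.56e-05). SCD, the stearoyl-CoA desaturase that makes oleic acid, had 187, 538 and 993 CPM at 0 h and 89.1, 105 and 126 CPM at 24 h (-2.37, SE 0.32, FDR 1.19e-05). For FASN and SCD the highest level at 24 h lay below the lowest at 0 h. The elongase gene ELOVL6 had 5.27, 22.95 and 51.98 CPM at 0 h and 1.79, 2.32 and 2.99 CPM at 24 h (-3.44, SE 0.43, FDR 3.45e-06), again without overlap. IDH1, an isocitrate dehydrogenase that supplies NADPH, fell by 0.88 on the log2 scale (FDR 0.0063). ACLY, ACSS2 and ELOVL5 lost their calls without animal 107 (FDR 0.062, 0.065 and 0.12). ACLY also did without animal 201 (FDR 0.051), and ELOVL5 without animal 101, 104 or 201.

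The animals differed widely at 0 h and little at 24 h in this pathway. Summed over the 12 genes, the level at 0 h ran from 433 CPM (animal 103) to 1804 CPM (animal 107), a coefficient of variation of 40.5% between animals, and at 24 h from 278 to 323 CPM, a coefficient of variation of 6.28%. For FASN alone the mean was 233 ± 109 CPM (SD, n = 7) at 0 h and 40.7 ± 3.17 CPM at 24 h. The sum was lower at 24 h in 7 of 7 animals, at 0.165 (animal 107) to 0.642 (animal 103) of its own 0 h level. Animal 103 had the lowest 0 h level and the smallest relative change. With 24 h levels this alike, the second follows from the first.

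Of the named genes of fatty acid uptake and triglyceride synthesis, 3 of 8 were downregulated. FABP4, the fatty acid carrier of adipocytes, had 7.37, 42.6 and 63.6 CPM at 0 h and 1.46, 4.48 and 10.2 CPM at 24 h (log2 fold change -3.04, SE 0.48, FDR 0.000134). PCK1 and PCK2, the cytosolic and mitochondrial phosphoenolpyruvate carboxykinases, fell by 3.10 (FDR 3.73e-07) and 3.29 (FDR 3.68e-06) on the log2 scale, without overlap between the groups. Both also belong to gluconeogenesis, where FBP1 fell by 1.08 (FDR 0.0026), so that all 3 named members of that list were downregulated. The acyl-CoA synthetase gene ACSL1, the phosphatidate phosphatase gene LPIN1 and the glycerol-phosphate acyltransferase gene GPAM had log2 fold changes of -0.14, -0.15 and -0.11 (FDR 0.43, 0.77 and 0.87) and were not called. Of 12 named lipolysis genes 7 were downregulated. LIPE, the hormone-sensitive lipase, had 9.40, 20.1 and 33.4 CPM at 0 h and 4.83, 7.55 and 12.7 CPM at 24 h (-1.32, SE 0.19, FDR 5.07e-05). ADORA1, an adenosine receptor that restrains lipolysis, fell by 2.39 (FDR 4.56e-05), and PDE3B, the phosphodiesterase through which insulin restrains it, by 1.25 (FDR 0.0014). The insulin receptor gene INSR (-0.18, FDR 0.37) and its substrate gene IRS1 (-0.07, FDR 0.82, and 0.09 without animal 206) were not called. GNAI1 (-0.86, FDR 0.0074) and ADCY6 (-0.59, FDR 2.85e-05) lost their calls without animal 107 or animal 201. For GNAI1 the FDR was then 0.052 or 0.067, and for ADCY6 the log2 fold change was then -0.55 or -0.57, under the fold threshold. FFAR4 (-4.92, FDR 0.000419) was not tested when animal 206 was left out.

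Outside the lists, the named genes that fell furthest at a mean of at least 1 CPM were TRARG1, ACSM1 and MAL2. TRARG1, a regulator of the insulin-responsive glucose transporter, had 4.24, 26.5 and 41.9 CPM at 0 h and 0.149, 0.306 and 0.879 CPM at 24 h (log2 fold change -6.18, SE 0.46, FDR 4.58e-10). ACSM1, a medium-chain acyl-CoA synthetase, had 1.91, 12.7 and 21.8 CPM at 0 h and 0.158, 0.437 and 0.802 CPM at 24 h (-4.94, SE 0.41, FDR 2.31e-09). MAL2, a membrane-trafficking protein, had 0.471, 2.65 and 5.37 CPM at 0 h and 0.0516, 0.132 and 0.365 CPM at 24 h (-4.19, SE 0.50, FDR 1.67e-06). A fall in 7 of 7 animals was a condition for choosing these 3 genes. None of the 3 overlapped between the groups.

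**Figure D2:**
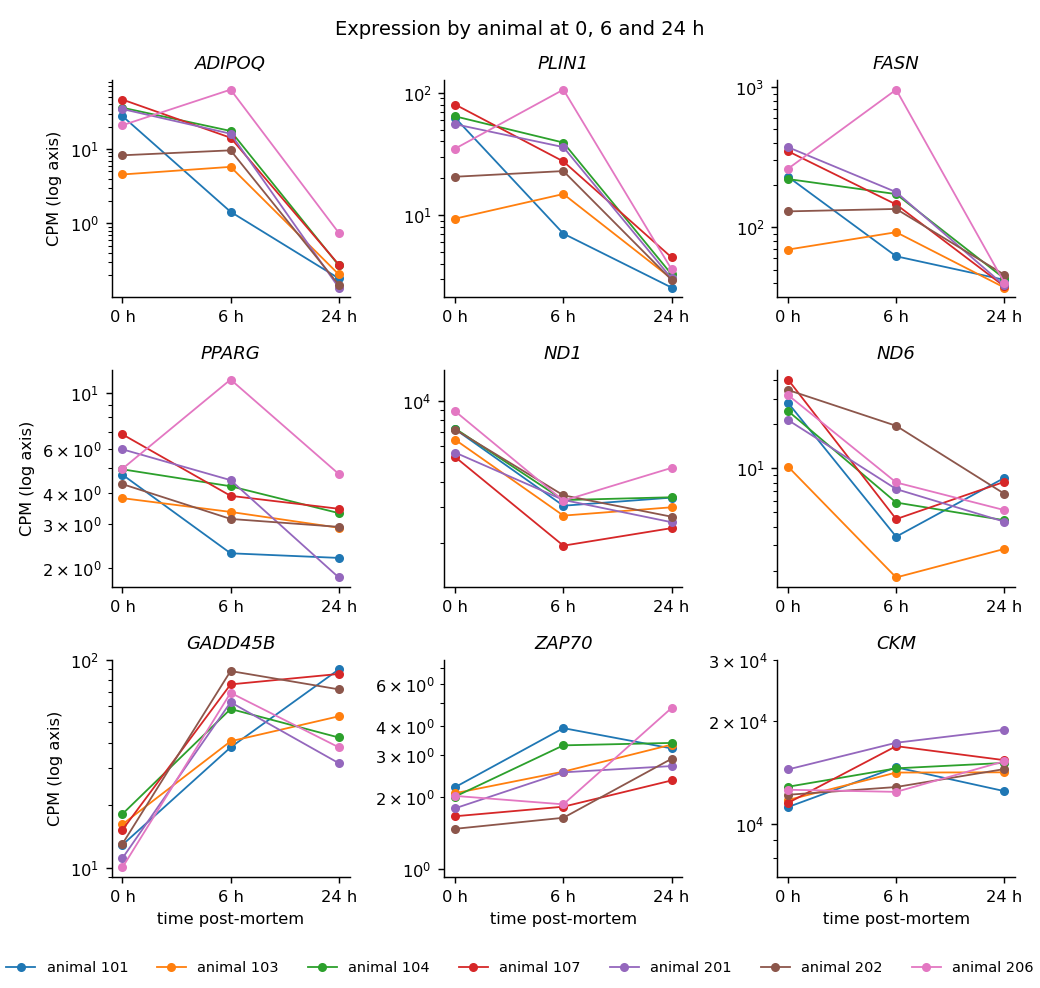
Level of 9 genes in each of the 7 animals (coloured lines) at 0, 6 and 24 h, in CPM on a log axis. ADIPOQ, PLIN1 and FASN were called lower at 24 h than at 6 h, although animal 101 already stood at 1.43 CPM of ADIPOQ at 6 h. The animals lie closer together at 24 h than at 0 h for PLIN1 and FASN but not for ADIPOQ (coefficient of variation 75.3% at 24 h and 59.7% at 0 h). ND1 and ND6 fell before 6 h, GADD45B rose before 6 h, and animal 206 stands above the others at 6 h for ADIPOQ, PLIN1, FASN and PPARG.

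In the contrast with 6 h the fat cell genes were again lower at 24 h. Against 6 h, 79 genes were downregulated at 24 h (0.54% of the genes tested) and 1 was upregulated (0.00684%). The contrasts with 0 h and with 6 h share the 24 h samples, so their values are given side by side only. Of the 52 named fat and lipid genes, 28 were called lower at 24 h than at 6 h and 0 were called at 6 h against 0 h, where 0.185% of all genes were downregulated. The median of their log2 fold changes was -0.09 for 6 h against 0 h and -0.95 for 24 h against 6 h. ADIPOQ had a log2 fold change of -0.74 at 6 h and of -6.00 between 6 and 24 h (FDR 6.90e-09), and SCD had -0.21 and -2.16 (FDR 0.000108). Animals did not move alike up to 6 h. The summed fatty acid synthesis level of animal 206 went from 1198 CPM at 0 h to 4215 CPM at 6 h, and that of animal 101 from 1008 to 333 CPM. At 24 h the sums of these animals were 323 and 278 CPM. At 48 and 72 h, compared with the same 0 h samples, ADIPOQ had log2 fold changes of -7.83 and -7.48 and FASN of -2.59 and -2.48. HOXD10, a homeobox gene named after its values were seen, was the 1 gene upregulated against 6 h (log2 fold change 1.71, FDR 0.0028), while against 0 h it was at 0.87 (FDR 0.059).

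**Figure D3:**
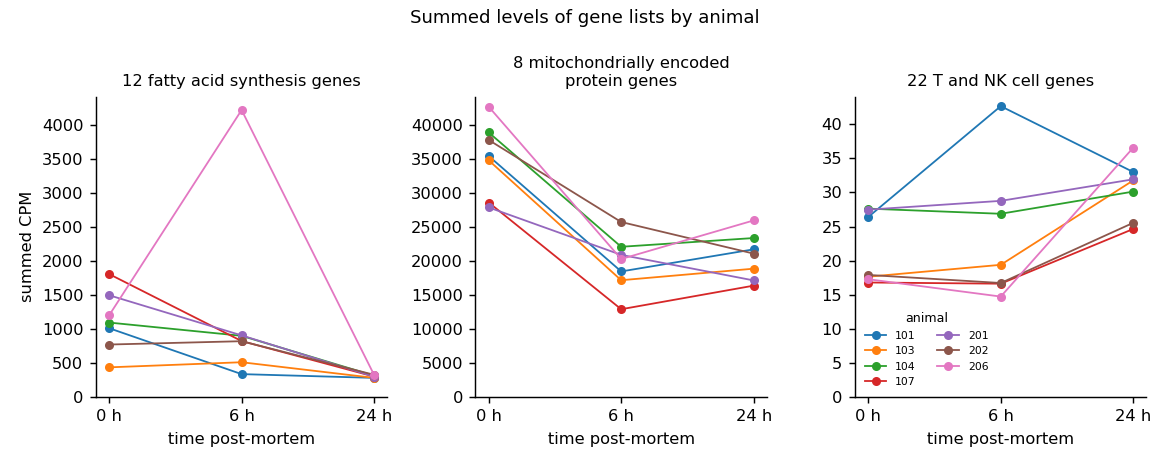
Summed CPM of 3 gene lists in each of the 7 animals at 0, 6 and 24 h, on axes that start at 0. The 12 fatty acid synthesis genes converged to between 278 and 323 CPM at 24 h, the 8 mitochondrially encoded protein genes were lower at 24 h than at 0 h in every animal, and the 22 T and NK cell genes were higher at 24 h in every animal.

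Most of the named protein genes of the mitochondrial genome fell. Mitochondrial DNA encodes core subunits of the respiratory chain, and its strands are transcribed as long precursors that are cut at the tRNAs. Of the 13 protein genes of this genome, 8 were named here. The other 5 have no symbol here, which leaves them outside the genes that were DE at some time point. The 8 were thus selected for a change, and the counts, median and share given below do not describe the other 5. Of the 8, 7 were downregulated at 24 h with a median log2 fold change of -0.80 over the 8. ND1, a subunit of complex I, had 5288, 7209 and 8858 CPM at 0 h and 2373, 3002 and 4680 CPM at 24 h (log2 fold change -1.14, SE 0.12, FDR 2.46e-07). ND6, the complex I subunit encoded on the other strand, had 10.3, 28.1 and 40.5 CPM at 0 h and 2.81, 5.19 and 8.61 CPM at 24 h (-2.25, SE 0.24, FDR 2.93e-07). ND2 fell by 0.90 (FDR 3.21e-06), ND5 by 0.89 (FDR 0.000114) and ND4L by 0.72 (FDR 0.000235). In these 5 genes every 24 h level lay below every 0 h level. CYTB, the cytochrome b of complex III, had 6198, 9319 and 11113 CPM at 0 h and 3612, 5474 and 7468 CPM at 24 h (-0.68, SE 0.10, FDR 9.43e-05), with overlapping ranges. ND4 (-0.60, FDR 0.0011) was called by a small margin of fold change and without animal 103 or animal 107 stood at -0.57 or -0.58. ND3 (-0.58, FDR 0.0014) was lower in 7 of 7 animals and under the fold threshold.

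Summed over the 8 genes, these transcripts accounted for 3.62 ± 0.45% (SD, n = 7) of the counts of a 0 h sample and 2.15 ± 0.37% of those of a 24 h sample. The difference was -1.47 ± 0.16 percentage points, lower in 7 of 7 animals, with animal values between -1.69 and -1.23. At 6 h the share was 2.04 ± 0.42%. At 6 h all 8 genes were called lower than at 0 h, and none of the 8 was called between 6 and 24 h (median log2 fold change 0.05). At 48 and 72 h, against the same 0 h samples, ND1 was at -0.82 and -0.56 and ND6 at -2.06 and -1.31.

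Of the 5 mitochondrial tRNA genes in the study's list of DE genes, 4 were downregulated, with log2 fold changes between -2.44 and -0.79. Mitochondrial tRNA genes that the study found DE at no time point are not counted here. At 6 h, against the same 0 h samples, 4 of the 5 were called lower, and none was called between 6 and 24 h. Both mitochondrial rRNA genes (ENSBTAG00000043567 and ENSBTAG00000043570) were not called, at -0.22 (FDR 0.31) and -0.17 (FDR 0.43). Transfer RNA genes abut protein genes on this genome, and reads across a border could have been assigned to either. Of the 69 nuclear genes fixed for the respiratory chain, 29 were named and none was called. Their log2 fold changes ran from -0.25 to 0.28, with a median of 0.19, and 28 of the 29 were above 0. The 29 had been found DE at some time against the same 0 h samples (medians 0.43 at 48 h and 0.71 at 72 h). Their shared direction at 24 h is thus not independent evidence. SDHB, the nuclear iron-sulphur subunit of complex II, had 281, 309 and 359 CPM at 0 h and 306, 353 and 395 CPM at 24 h (0.18, SE 0.05, FDR 0.036). TFAM, which initiates mitochondrial transcription, was at -0.26 (FDR 0.37). LRPPRC and SLIRP, the partners that stabilize mitochondrial mRNAs, were at -0.25 (FDR 0.038) and 0.22 (FDR 0.064), all 3 under the fold threshold.

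Glycolysis and the energy sensor AMPK showed no called member. The 5 named genes of glycogen and glycolysis included PGAM2, the muscle phosphoglycerate mutase (log2 fold change 0.16, FDR 0.14), and ENO3, the muscle enolase (0.09, FDR 0.45). The AMPK subunit genes PRKAA1, PRKAA2 and PRKAB2 had -0.19, -0.54 and -0.46 (FDR 0.13, 0.14 and 0.30). PRKAA2 spanned 18.3, 23.3 and 28.04 CPM at 0 h and 5.41, 17.8 and 23.8 CPM at 24 h.

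**Figure D4:**
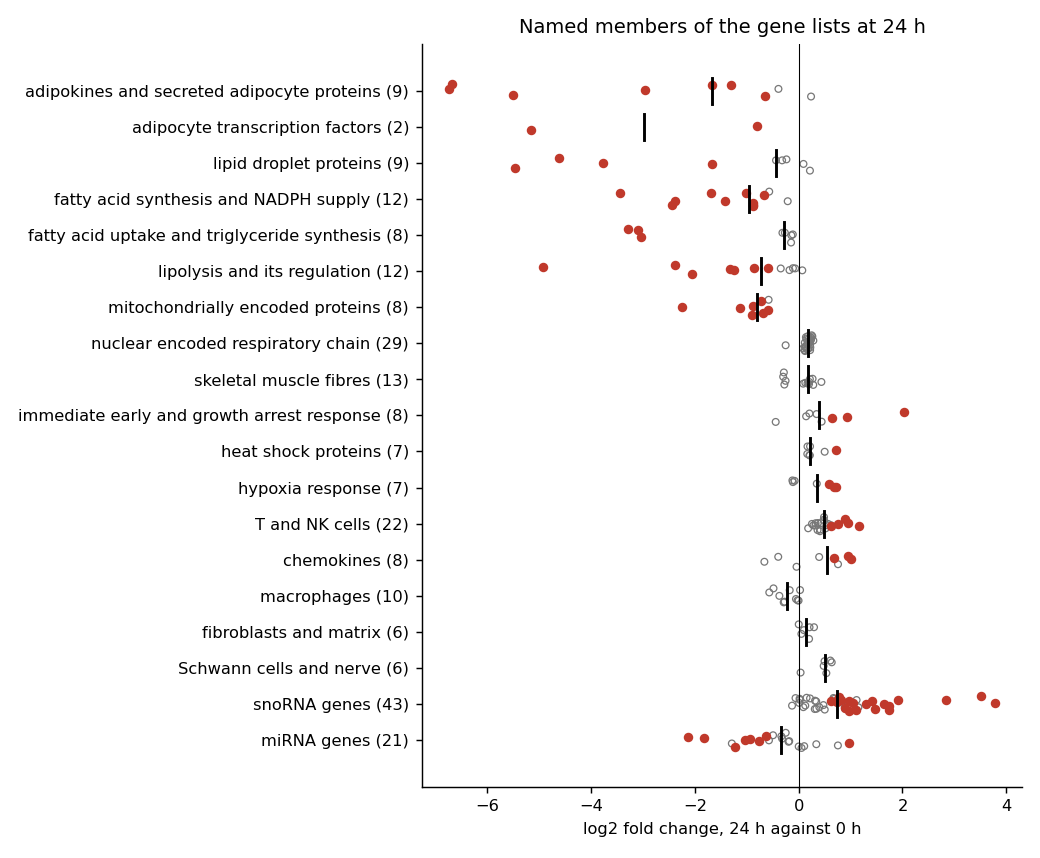
Log2 fold change at 24 h against 0 h of each named gene in 17 gene lists and of the snoRNA and miRNA genes. Filled red points were called, open points were not, vertical bars are medians, and the number of named genes stands in parentheses. Called genes of the 6 fat and lipid lists and of the mitochondrial genome lie left of 0, while called genes of the immediate early, heat shock, hypoxia, T and NK cell and snoRNA groups lie right of it.

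Among the upregulated genes, the clearest were a growth arrest gene, non-coding RNAs and catecholamine enzymes. Of the 106 upregulated genes, none was called higher at 24 h than at 6 h (median log2 fold change 0.20). At 6 h, against the same 0 h samples, GADD45B (2.14), JUNB (0.68), PNMT (1.92) and PARP3 (1.23) were already upregulated. The chemokine gene CCL21 (0.35) and the activation marker gene CD69 (0.44) were not called at 6 h. GADD45B, a stress sensor that acts on p38 and JNK signalling, had 10.03, 13.02 and 18.1 CPM at 0 h and 31.8, 53.5 and 89.9 CPM at 24 h (log2 fold change 2.04, SE 0.24, FDR 1.99e-06). Every animal at 24 h lay above every animal at 0 h. JUNB, an AP-1 transcription factor, had 37.9, 46.9 and 91.0 CPM at 0 h and 64.6, 110 and 145 CPM at 24 h (0.94, SE 0.14, FDR 0.000104). It was higher in 7 of 7 animals with overlapping ranges, and without the block its FDR was 0.065. Of the 8 named genes of the immediate early and growth arrest list, 3 were upregulated, GADD45G being the other (0.64, FDR 0.0038, and 0.47 without animal 101). FOS and ATF3, which are induced early by many stresses, had log2 fold changes of 0.21 (FDR 0.61) and 0.44 (FDR 0.21) and were not called.

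The stress lists changed in part and in both directions. DDIT3, the CHOP factor of the unfolded protein response, had 6.11, 6.76 and 9.32 CPM at 0 h and 7.76, 14.3 and 19.2 CPM at 24 h (log2 fold change 0.82, SE 0.15, FDR 0.000894). ATF5, a related factor of the integrated stress response, fell from 11.2, 25.3 and 34.9 CPM to 9.44, 10.7 and 12.8 CPM (-1.16, SE 0.20, FDR 0.000549). The 2 genes were higher and lower in 7 of 7 animals each, and their ranges overlapped. STC2, a secreted glycoprotein, was called (1.35, FDR 0.036) but lost the call when any 1 of 5 animals (101, 104, 107, 201 or 202) was left out, with an FDR of up to 0.15. Of 7 named heat shock genes, only HSPA1A, the inducible HSP70, was called. It had 975, 1715 and 4863 CPM at 0 h and 1703, 2522 and 7345 CPM at 24 h (0.71, SE 0.21, FDR 0.036). Without any 1 of 6 animals (all but 104) it was not called, with an FDR of up to 0.12. The hypoxia list had 3 of 7 named genes upregulated. These were the neuronal-type glucose transporter gene SLC2A3 (0.72, FDR 0.00043), the vasodilator gene ADM (0.59, FDR 0.0075) and the clock-related repressor gene BHLHE40 (0.69, FDR 0.018). Without animal 101 only SLC2A3 of the 3 was called. ADM then stood at a log2 fold change of 0.48 and BHLHE40 at an FDR of 0.063. Without animal 202 ADM was lost through its fold change, and without animal 107 BHLHE40 was lost (FDR 0.078).

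Both named enzymes of catecholamine synthesis were upregulated at low levels. PNMT, which converts noradrenaline to adrenaline, had 0.898, 1.57 and 4.18 CPM at 0 h and 3.75, 5.91 and 8.32 CPM at 24 h (log2 fold change 1.65, SE 0.29, FDR 0.000664). TH, the tyrosine hydroxylase that starts the pathway, had 0.317, 0.498 and 0.929 CPM at 0 h and 0.80, 0.983 and 1.67 CPM at 24 h (1.10, SE 0.18, FDR 0.000298). Each was higher in 7 of 7 animals and the ranges of each overlapped. The summed level of the 6 named Schwann cell and nerve genes ran from 30.4 to 47.6 CPM at 0 h and from 39.4 to 51.2 CPM at 24 h, and none of the 6 was called (lowest FDR 0.06). All 6 had a log2 fold change above 0 (median 0.52), though NCAM1, at 0.04, stood at -0.03 without animal 101 and at -0.02 without animal 104. These 6 had also been found DE at some time against the same 0 h samples. The sum was higher at 24 h in 6 of 7 animals, at 0.979 (animal 202) to 1.64 times (animal 104) its 0 h level, and the part of nerve tissue in the change of PNMT and TH was not tested. Other named genes of large rise were PARP3, a DNA repair enzyme (1.15, FDR 0.0075), RASL11A, a Ras-like GTPase (1.05, FDR 0.0081), and CCDC159 (0.86, FDR 0.000116). A rise in 7 of 7 animals was a condition for choosing these genes.

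Small nucleolar RNAs, which guide the chemical modification and cutting of ribosomal RNA and are mostly released from introns, made up 19 of the 106 upregulated genes. Of the 43 snoRNA genes in the study's list of DE genes, these 19 were upregulated and none was downregulated. The median log2 fold change was 0.73, and 41 of the 43 were above 0. The 43 were selected for a change against the same 0 h samples, so their shared direction is not independent evidence. Genes of this kind that the study found DE at no time point are not counted here. At 6 h, against the same 0 h samples, 10 of the 43 were upregulated, when 0.349% of all genes were. U3 (ENSBTAG00000028359), which acts in the first cuts of the ribosomal RNA precursor, had 0.0555, 0.124 and 0.502 CPM at 0 h and 0.983, 2.02 and 3.25 CPM at 24 h (log2 fold change 3.52, SE 0.27, FDR 5.35e-10). Its raw counts were 2 to 29 at 0 h and 35 to 206 at 24 h, with no overlap in CPM. SNORA57 had 0, 0.0432 and 0.194 CPM at 0 h and 0.112, 0.547 and 1.44 CPM at 24 h (3.79, SE 0.50, FDR 8.78e-06), higher in 7 of 7 animals with overlapping ranges. SNORD99 (1.74, FDR 0.000436) and SNORD104 (1.47, FDR 0.000799) did not overlap between the groups. The count of 19 fell to 11 without animal 101 or animal 107 and to 6 without the block. A 5.8S rRNA gene (5_8S_rRNA, ENSBTAG00000048608) had 22.98, 33.3 and 43.6 CPM at 0 h and 99.2, 241 and 318 CPM at 24 h (2.51, SE 0.29, FDR 1.40e-06), again without overlap. Ribosomal RNA and snoRNA genes have near-identical copies, so that reads could be split between copies and these values are uncertain per gene. The methods name adapters of a stranded mRNA library kit. Whether these reads come from the mature RNAs, from precursors or from host transcripts was not tested. NHP2, the 1 named protein of snoRNA particles, was at 0.23 (FDR 0.014).

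A long non-coding RNA, ENSBTAG00000052369, had 7.76, 14.8 and 25.8 CPM at 0 h and 78.5, 107 and 137 CPM at 24 h. Its log2 fold change was 2.87 (SE 0.24, FDR 2.31e-09), it did not overlap between the groups, and at 6 h it was at 2.34. Of 103 named lncRNA genes, 5 were upregulated, 1 was downregulated and 97 were not called. Their log2 fold changes lay above 0 in 55 and below 0 in 48, with a median of 0.05. Of the 21 miRNA genes in the study's list of DE genes, 7 were downregulated and 1 was upregulated. Libraries of this kind count precursor or host transcripts rather than mature miRNAs. The gene bta-mir-29c had 1.67, 3.20 and 4.69 CPM at 0 h and 0.513, 0.644 and 1.19 CPM at 24 h (-2.13, SE 0.29, FDR 1.52e-05), with no overlap. The other 6 that fell were bta-mir-2350 (-1.04), bta-mir-12060 (-1.82), bta-mir-133a-1 (-0.77), bta-mir-2416 (-0.64), bta-mir-365-1 (-1.23) and bta-mir-10b (-0.94), with FDRs between 0.0079 and 0.046 and overlapping ranges. Without animal 101, 103, 201 or 206, 4 of the 7 were called, and bta-mir-10b was lost without any 1 animal (FDR of up to 0.12). The gene that rose was bta-mir-2887-2 (ENSBTAG00000054257, 0.96, FDR 0.0082, and FDR 0.062 without animal 201).

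Some markers of T and NK cells were upregulated. Of 22 named genes 5 were upregulated, none downregulated and 17 not called, and all 22 had a log2 fold change above 0 (median 0.48). ZAP70, a kinase of the T cell receptor, had 1.47, 2.01 and 2.21 CPM at 0 h and 2.35, 3.21 and 4.75 CPM at 24 h (log2 fold change 0.75, SE 0.13, FDR 0.000477), with no overlap. SH2D2A, a T cell adapter (1.16, FDR 0.015), CD69, an activation marker (0.95, FDR 0.021), CD8A, the co-receptor of cytotoxic T cells (0.61, FDR 0.021), and PVRIG, an inhibitory receptor (0.88, FDR 0.039), were each higher in 7 of 7 animals with overlapping ranges. CD3E, a chain of the T cell receptor complex, had 2.41, 2.72 and 5.48 CPM at 0 h and 3.70, 4.75 and 5.60 CPM at 24 h and was not called (0.48, FDR 0.09). The summed level was between 16.8 and 27.6 CPM at 0 h and between 24.6 and 36.6 CPM at 24 h, and in each animal the 24 h level was 1.09 (animal 104) to 2.12 times (animal 206) its 0 h level. The count of 5 fell to 1 without the block (ZAP70), to 1 without animal 107, to 2 without animal 206 and to 3 without animal 103 or animal 202.

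Other markers of immune cells gave no uniform direction. None of the 10 named macrophage genes was called, with a median log2 fold change of -0.22. CSF1R, the receptor of the macrophage growth factor, had 7.57, 20.2 and 31.9 CPM at 0 h and 9.21, 16.7 and 19.3 CPM at 24 h (-0.27, FDR 0.38). Of 8 named chemokine genes 3 were upregulated. CCL21, which draws T cells and dendritic cells to lymphatic vessels, had 1.21, 1.64 and 3.79 CPM at 0 h and 1.53, 3.55 and 6.06 CPM at 24 h (log2 fold change 1.0003, SE 0.19, FDR 0.0014). CCL26 (0.68, FDR 0.019) and CXCL8 (0.96, FDR 0.03) were the others, and without animal 101, 103 or 206 only 1 of the 3 was called. CXCL8 lost its call without any 1 of 6 animals (all but 104), with an FDR of up to 0.094. Of 6 named neutrophil, mast cell and acute phase genes, 4 were upregulated, 1 was downregulated and 1 was not called. The hepcidin gene HAMP rose by 3.07 (FDR 0.0031) from a highest level of 0.0555 CPM at 0 h to a median of 0.211 CPM at 24 h. The mast cell tryptase gene TPSB2 (0.64, FDR 0.0094), the serum amyloid gene SAA3 (0.84, FDR 0.011) and the lactoferrin gene LTF (0.65, FDR 0.016) also passed, but without animal 206 HAMP was the only called gene of these 4. LBP, the lipopolysaccharide-binding protein, fell from 0.250, 1.18 and 1.94 CPM to 0.129, 0.240 and 0.448 CPM (-2.21, SE 0.38, FDR 0.000447). The neutrophil gene S100A9 was not called, and its log2 fold change lay between -0.41 and -0.06 when 1 animal was left out. The summed level of the 6 genes had a median of 6.26 CPM at 0 h and 6.79 CPM at 24 h, with overlapping ranges.

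Of 5 named interferon response genes 3 were downregulated, all at under 1 CPM in the median animal. They were the antiviral GTPase gene MX2 (-1.30, FDR 0.025), OAS1Z (-0.65, FDR 0.029) and the DNA sensor gene CGAS (-0.71, FDR 0.042). Without animal 101 or animal 202 none of the 3 was called, and without animal 103 or animal 201 only 1 was.

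The remaining cell types of the tissue had few called genes. MCAM, an adhesion protein of pericytes and endothelium, had 25.7, 32.1 and 45.0 CPM at 0 h and 18.04, 19.4 and 21.8 CPM at 24 h (log2 fold change -0.71, SE 0.12, FDR 0.000192), with no overlap, while the other 4 named pericyte and smooth muscle genes were not called. None of the 6 named fibroblast genes (median 0.15) was called. Neither named haemoglobin gene was called either, at log2 fold changes of 0.88 and 1.55 (lowest FDR 0.41). Their summed level varied widely between animals, with a coefficient of variation of 163% at 0 h and 171% at 24 h. MYOD1, a myogenic factor, was at -0.08 (FDR 0.64). The lists of endothelial cells and of calpains and cathepsins, the proteases linked to tenderness, had no named member. No gene with a symbol of these lists was thus in the study's list of DE genes at any time point. Their levels were not analysed here. Macrophage, fibroblast, muscle fibre and haemoglobin lists thus had 0 called genes beside 33 of 52 for fat and lipid genes, and the part of cell composition in each change was not tested.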

How the data were processed

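Cores of *LT* from 7 heifers at 5 times *post-mortem* were sequenced, and this comparison used the samples of 24 h and 0 h, with 6 h as the time in between. Per the methods, the authors trimmed the read pairs with Trimmomatic (version 0.39), checked them with FastQC, mapped them with STAR (version 2.7.0f) to ARS-UCD1.2 and counted them per gene with featureCounts (version 1.6.4) and an Ensembl annotation. The submitters' processing notes list the same versions and version 0.11.8 of FastQC. The authors deposited raw read counts as integers for every gene in each sample, neither normalized nor pooled. The methods describe strand specific counting, while the options printed there include the unstranded setting. The column totals ran from 20568418 to 104275821. After rounding, this is the range that the paper reports for reads assigned to the sense strand, so the counts used here appear to be strand specific. Whether reads of overlapping antisense genes were fully separated was not tested. The table holds 27607 genes, of which 22206 had reads, and every column was used in the fit.

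From these counts, genes were kept by filterByExpr of edgeR (version 4.0.16, R 4.3.3) with time as group and a minimum count of 10, which left 14630. Libraries were scaled by TMM (factors 0.967 to 1.09 at 0 h and 1.00 to 1.11 at 24 h), and a model with animal as a block and time was fitted to all 35 samples. The quasi-likelihood test was applied, with Benjamini-Hochberg adjustment. The SE is the absolute log2 fold change divided by the square root of the F statistic, and log2 values per sample used a prior count of 2. Intervals were not computed from counting error, since the spread between animals is in the model. The procedure was tested on simulated data. The animal label gives the pairing: deviations from the time means correlated between samples of the same animal with a median r of 0.63 (0.46 to 0.69, 7 pairs) and between different animals with a median of -0.11 (42 pairs). The heifers are separate animals, but each time point has 1 core and 1 library per animal.

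Symbols and biotypes came from the study's supplementary list of DE genes (3106 and 3640 genes), whose fold changes and p-values were not used. Coordinates, sequences and gene lengths were not used here. The members and the 31 gene lists were chosen with earlier results of these data known. Named genes followed a rule: the 10 of largest change per direction (called, with a symbol, at least 1 CPM, same direction in 7 animals), the mitochondrially encoded protein genes, up to 4 called members of lowest FDR and 2 uncalled members of highest mean CPM per list and non-coding biotype, and called miRNA genes. Further list members were added as examples after their values were seen, and a few genes that the rule names are not reported here. Alternatives tried were no block, the 14 samples alone, edgeR's glmTreat, DESeq2 (version 1.42.0) as test or for size factors, limma voom (version 3.58.1), other filters, no fold threshold and leaving out each animal.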

Additional observations from a re-analysis of the deposited data

Results flagged for a closer look

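For 145 measures the 7 animals' values of log2 CPM at 24 h minus 0 h were searched for 1 animal that lay far from the other 6, relative to the range of the group. This was found for 17 of them, and chance alone flags about 1 in 20 groups. In animal 103 the difference was the highest of the 7 for JUNB (1.54), FOS (0.84) and LGALS12 (0.70, against -3.12 for the next animal), and the lowest for ND4 (-0.80) and for the median of the mitochondrially encoded protein genes (-0.99). In animal 206 it was the lowest for HSD17B12 (-0.69), IRS1 (-0.92), PRKAB2 (-1.75), PRKAA1 (-0.57), LRPPRC (-0.58) and the mitochondrial tRNA gene ENSBTAG00000043572 (-1.61). Animal 101 was the highest for GADD45G (1.58) and the lowest for MX2 (-2.73) and SNORD14 (ENSBTAG00000042134, -0.68). Animal 201 was the lowest for SAA3 (-0.23) and the highest for the lncRNA ENSBTAG00000052369 (3.83). Animal 107 was the lowest for bta-mir-12060 (-3.47). Of these genes, JUNB, ND4, LGALS12, GADD45G, SAA3, MX2, bta-mir-12060, ENSBTAG00000043572 and ENSBTAG00000052369 were called at 24 h.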

How the results depend on the processing

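Of the 139 named genes, none called at 24 h against 0 h changed its direction under any alternative run, while 7 that were not called crossed 0 under at least 1 of them, among them IRS1 and NCAM1. The 106 upregulated and 139 downregulated genes became 596 and 386 with no fold threshold, 12 and 64 when glmTreat tested against a fold of 1.5, 70 and 92 with at least 1 CPM in 7 samples, and 69 to 94 and 102 to 148 when 1 animal was left out. Without the replicate block they were 22 and 79, and the block also decided the snoRNA count (19 with it, 6 without) and the T and NK cell count (5 with it, 1 without). The fat and lipid and mitochondrially encoded counts and those against 6 h stayed within 1.5 times without it. The fit of the 14 samples alone called 97 and 124 genes, of which 80 and 111 were among the 106 and 139. DESeq2 called 117 and 147 and limma voom 111 and 144. Against 6 h, the 1 upregulated gene became 5 with no fold threshold, 2 with no filter, 0 with the 1 CPM filter, 2 by limma voom, 3 by DESeq2 and 1 to 6 when 1 animal was left out (6 without animal 101). The 79 downregulated genes became 52 by glmTreat, 49 with the 1 CPM filter and 60 to 81 without 1 animal. The fit of 14 samples was not made for 24 h against 6 h. By glmTreat, 2 of the 7 mitochondrially encoded, 7 of the 19 snoRNA and 0 of the 5 T and NK cell genes were called, and with the 1 CPM filter 7 snoRNA and 3 T and NK cell genes. Leaving out 1 animal gave 27 to 34 fat and lipid, 6 to 8 mitochondrially encoded, 11 to 16 snoRNA and 1 to 6 T and NK cell genes, and a change of the mitochondrial share between -1.51 and -1.43 percentage points. Of the 139 named genes, 37 lost their call without the block and 45 by glmTreat. Depth limits the genes under 1 CPM most: 62 of the 106 upregulated genes are among them.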
